A study of Bactrocera dorsalis with 16 samples.

Results

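Small RNA libraries of ovary and of fat body from adult female oriental fruit flies (Bactrocera dorsalis), a tephritid pest of fruit, were compared at day 5 of adult life, with 2 libraries per tissue. The flies of both tissues and all days were kept alike, at 28 °C in a cycle of 12 h light and 12 h dark, and as adults were fed yeast extract and sugar. No genotype, treatment or drug distinguishes the groups, and the labels do not say how many flies gave each library. The labels list the replicates as separate samples, so the p-values rest only on the spread between these libraries. In the main test of day 5 this spread was taken over sequences of like level, not from each sequence's own replicates. The whole series held 16 libraries in 8 groups of tissue and day, and 747 distinct sequences were listed in 788 entries. Entries with the same sequence were summed, and a sequence was kept where its value was at least 10 in 2 or more of the 4 libraries of day 5. This left 226 sequences, 172 named after known miRNAs and 54 with a PC name, given by the authors' software to predicted candidates. Of the others, 175 were not above 0 in any library of day 5, and 346 were above 0 but under the filter. The last sequences to pass were PC-5p-100961_84 and bdo-miR-219_R-2, with a second highest value of 10.2, and the first to fail were PC-3p-106115_78 with 9.96 and dvi-miR-9c-3p with 9.21. The kept sequences held between 99.8% and 99.9% of the signal of each library.

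A miRNA is a short RNA that guides an Argonaute protein to messenger RNAs, which are then translated less or degraded. Bases 2 to 8 from its 5′ end, the seed, carry most of the pairing, so miRNAs with 1 seed can share targets. The insect fat body stores fat and glycogen and secretes yolk precursors into the blood, and the ovary takes these up as its eggs grow. Each miRNA hairpin gives 2 arms, usually at unequal levels, and the table lists forms of an arm that differ at the ends. In its names the prefix is the species of the matching known miRNA (bdo, dme, dvi, aga and others), and R+1 or L-2 counts bases added or lost at the right or left end.

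The sequences that carry the difference between the tissues are printed here as the deposited table gives them, 5′ to 3′ in the DNA alphabet, with the seed in capitals. The first set was higher in ovary, or is the close relative of a sequence that was, and shows which of them share a seed.
dvi-miR-989-3p_R+1: tGTGATGTgacgtagtggaaca
bdo-miR-92b: aATTGCACtagtcccggcctgc
ame-miR-92a-3p_L+1: tATTGCACttgtcccggcctat
PC-3p-204_49387: tATTGCACaatccccggcctga
bdo-miR-7_R-3: tGGAAGACtagtgattttgtt
bdo-miR-995: tAGCACCAcatgattcggctt
bdo-miR-998: tAGCACCAtgagattcagctc
bdo-miR-999: tGTTAACTgtaagactgtgtct
bdo-miR-12_R+1: tGAGTATTacatcaggtactggt
bdo-miR-283: aAATATCAgctggtaattctgg
bdo-miR-304_R-1: tAATCTCAatttgtaactgtga
Here bdo-miR-92b, ame-miR-92a-3p_L+1 and PC-3p-204_49387 share 1 seed, and bdo-miR-995 and bdo-miR-998 share another. The second set was higher in fat body and holds both arms of miR-8 and of miR-281.
bdo-miR-8_R+1: tAATACTGtcaggtaaagatgtc
dme-miR-8-5p: cATCTTACcgggcagcattaga
bdo-miR-958: tGAGATTCttctaatctactgg
dme-miR-274-5p_R-1: tTTGTGACcgacactaacgggt
bdo-miR-252: cTAAGTACtagtgccgcaggag
bdo-miR-281: aAGAGAGCtatccatcgacagtc
bdo-mir-281-p3: cTGTCATGgaattgctcttttt
The third set is of miRNAs that were far higher in ovary at day 13 than at day 5.
bdo-miR-318: tCACTGGGctttgtttatctca
bdo-miR-994_R+1: tAAGGAAAtagtagccgtgatt
bdo-miR-6: tATCACAGtggctgttccttat
bdo-miR-5b: tATCACAGtgattttccttgt
Of these, bdo-miR-6 and bdo-miR-5b share the seed of the miR-2 family.

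The summed signal was 446487 and 434089 in ovary and 656505 and 638669 in fat body. Recovered reads, from the spacing of low values, numbered 194119 and 384699 in ovary and 213652 and 417399 in fat body, so replicate 1 was the shallower in both tissues. Day 5 was the shallowest day of the series, and the filter of 10 stood for between 3.25 and 8.86 reads. Over the kept sequences, which are not independent replicates, libraries of 1 tissue correlated at 0.956 (ovary) and 0.948 (fat body) on the log2 scale, and libraries of different tissues at between 0.838 and 0.869. The median absolute difference between replicates was 0.59 log2 units in ovary and 0.55 in fat body. The most abundant sequence was miR-276a in both ovary libraries, with 25.1% and 21.9% of the signal, and miR-8 in both fat body libraries, with 29.4% and 34.8%.

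In limma with Benjamini-Hochberg adjustment, 68 of the 226 sequences differed between the tissues at an adjusted p under 0.05, and are the called sequences below. Of these, 39 were higher in ovary (17.3% of those tested) and 29 were lower in ovary (12.8%). Both ovary libraries lay above both fat body libraries for 68 sequences (30.1%), and both fat body libraries lay above for 72 (31.9%). Sequences higher in ovary took 32.8% of the ovary signal and 6.65% of the fat body signal, and those lower in ovary 38.6% and 71.1%. Among the called, 43 differed at least 4-fold and 5 less than 2-fold, where folds are of value + 1. The fit had 2 residual degrees of freedom and limma's prior was infinite, so each sequence was given the spread usual at its level and its own replicates did not set it, and very small p-values should not be read as precise. An exact permutation test of 1 sequence over 2 against 2 libraries cannot give a p below 0.333. Without ovary replicate 1 or without ovary replicate 2 there were 0 calls by limma, with 53 and 54 sequences at an unadjusted p under 0.05. There the lone ovary library is assumed to vary like the fat body pair. The differences themselves moved less, to 5.32 and 4.89 for miR-989 and to -2.53 and -2.96 for miR-8. Without fat body replicate 1 there were 43 calls, and without fat body replicate 2 there were 48. Calls given below that did not hold without each fat body library in turn include those of miR-1, miR-31, miR-100, miR-275, miR-276a, miR-277, miR-278, miR-317, miR-981, miR-iab-4, bdo-mir-12-p3, bdo-mir-304-p3 and dme-miR-252-5p_R+1. The count test edgeR, run on recovered reads of all 4 libraries, called 42 and DESeq2 called 50.

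**Figure D1:**
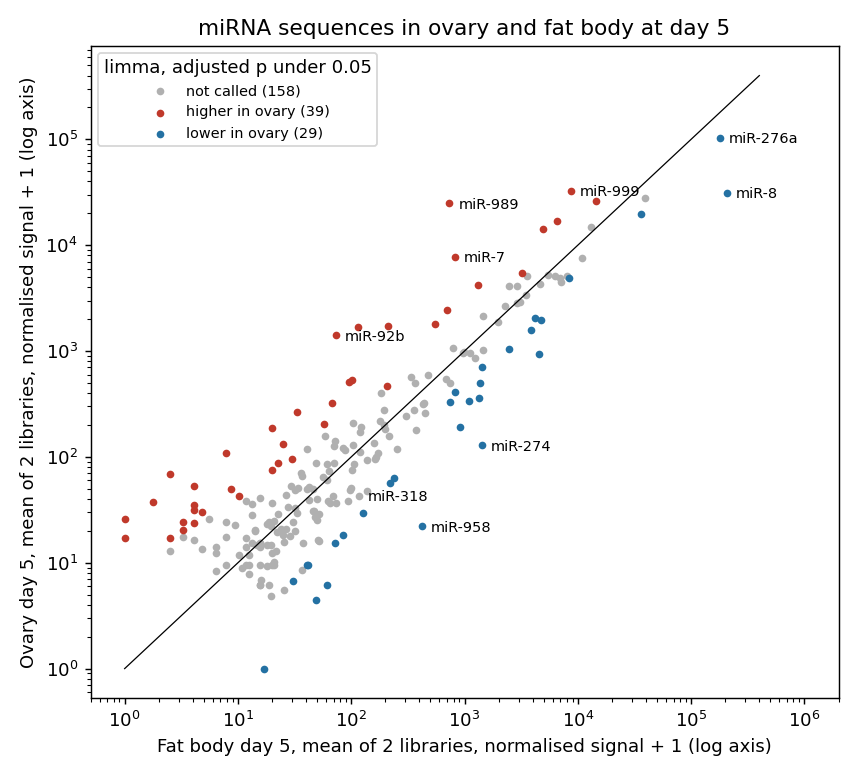
Mean signal + 1 of the 226 kept sequences in ovary (vertical, log axis) against fat body (horizontal, log axis), each point 1 sequence and each mean over 2 libraries, with the line of equality. The 39 sequences higher in ovary lie above the line, led by miR-989, and the 29 lower in ovary lie below it, with miR-8 the most abundant of them.

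The direction of these calls depended in part on the scale. The ovary libraries sum to less than the fat body libraries, and scaling all 4 to equal totals raised the tissue differences by about 0.54 log2 units. The median over all kept sequences was then 0.49 in place of -0.05, and 58 sequences were higher and 12 lower in ovary. TMM scaling, which lines libraries up on their bulk of middling sequences, shifted differences by 0.20 and called 36 higher and 18 lower. On all 3 scales 43 sequences were called, 33 higher and 10 lower. In 6 fits (the deposited values, both other scales, a fit that added the libraries of days 1 and 13, edgeR and DESeq2) 31 were called, 24 higher and 7 lower. The 7 were miR-8 and its 5p arm, miR-274, miR-958, miR-252, miR-281 and miR-263b.

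The largest difference in favour of ovary was that of miR-989 (dvi-miR-989-3p_R+1), which in Drosophila is needed in follicle cells for the migration of border cells. Its signal was 21167 and 28623 in ovary and 899 and 569 in fat body. Both ovary libraries thus lay far above fat body, by a log2 change of 5.10 ± 0.30 (SE, 95% interval 4.52 to 5.69), a fold of 34.4. It made up 5.65% of the ovary signal and 0.113% of that of fat body.

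The sequences with the seed of miR-92 (ATTGCAC, bases 2 to 8) were the next group high in ovary. The miR-92 genes of Drosophila are known from the upkeep of neural stem cells. The signal of bdo-miR-92b was 1466 and 1336 in ovary and 92.1 and 52.1 in fat body, a log2 change of 4.32 ± 0.47. That of miR-92a (ame-miR-92a-3p_L+1) was 1873 and 1540.0 against 239 and 178, a log2 change of 3.03 ± 0.42. The predicted candidate PC-3p-204_49387 has the same seed, and its signal was 2009.7 and 1347 in ovary against 126 and 99.7 in fat body, a log2 change of 3.87 ± 0.44. All 3 were several times higher in each ovary library than in either fat body library, and all 3 were called in the 6 fits. A form of miR-92b longer by 1 base (dme-miR-92b-3p_R+1) was at 78.3 and 56.6 in ovary and at 0 and 3.07 in fat body, the latter worth 2 reads. The fifth sequence of the seed, pte-miR-92b-3p_R+1_1ss10CT, was low everywhere, with 9.98 and 6.79 in ovary and 16.9 and 17.4 in fat body, and was not called. So 4 of 5 sequences of this seed were called higher in ovary, beside 17.3% of all kept sequences.

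The miRNA miR-7 (bdo-miR-7_R-3), which in Drosophila acts in germline stem cells and in eye development, stood at 6609 and 9008 in ovary and at 887 and 757 in fat body. The ovary libraries lay apart from those of fat body by a log2 change of 3.23 ± 0.32, and the call was made in all 6 fits. Its second kept form (dme-miR-7-5p_L+1R-2) was low, at 11.5 and 19.2 against 0 and 6.13, and missed the threshold with an adjusted p of 0.0512 in limma. Of the 10 kept sequences of the list of miRNAs known from the Drosophila ovary and germline, 2 were called higher, bdo-miR-7_R-3 and miR-989. None was called lower. The share called higher is near the 17.3% of all kept sequences, and the totals scale called 3 of the list higher. That list had a median log2 change of -0.44 on the deposited scale and of 0.10 on the totals scale.

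**Figure D2:**
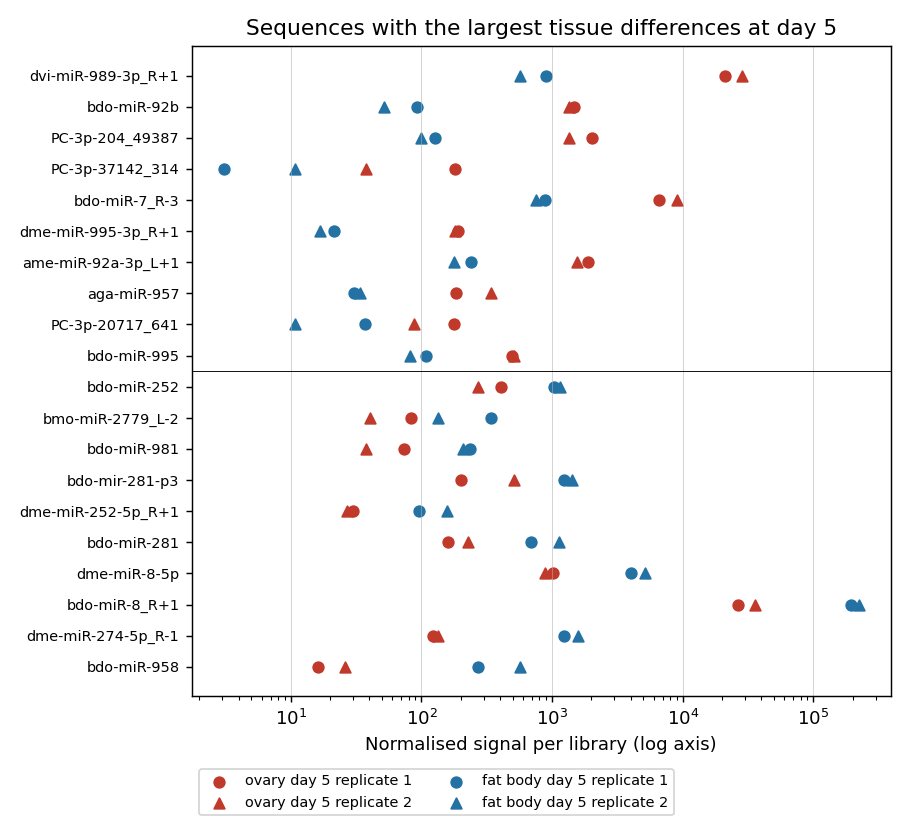
Signal in each of the 4 libraries (log axis) for the 10 sequences with the largest difference in favour of ovary (above the line) and the 10 in favour of fat body (below it), among those whose tissues do not overlap and whose higher mean was at least 100. Each symbol is 1 library, circles for replicate 1 and triangles for replicate 2. For miR-989 the ovary symbols lie at 21167 and 28623 and the fat body symbols at 899 and 569.

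Further groups of relatives were high in ovary. The seed AGCACCA, shared by miR-995 and miR-998, was carried by 4 kept sequences, of which 3 were called higher, beside 17.3% of all kept sequences. The signal of bdo-miR-995 was 497 and 512 in ovary and 107 and 81.2 in fat body, a log2 change of 2.42 ± 0.51 with an adjusted p of 2.88e-05. Its longer form dme-miR-995-3p_R+1 was at 189 and 181 against 21.5 and 16.9, a log2 change of 3.21 ± 0.67. The ovary libraries of each were nearly equal and several times above fat body. For bdo-miR-998 the ovary values of 104 and 71.3 lay above the fat body values of 52.2 and 44.5, but the difference of 0.82 ± 0.66 was not called.

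The 3 forms of miR-999, all with the seed GTTAACT, were called higher in ovary, beside 17.3% of all kept sequences. They differ only at the right end, so they are not independent of each other. The main form, bdo-miR-999, was the second most abundant sequence of the ovary, with 34634 and 30814 against 10409.9 and 7079.6 in fat body. This is a log2 change of 1.93 ± 0.24, and the sequence held 7.43% of the ovary signal and 1.35% of that of fat body. The form dme-miR-999-3p_R+1 differed by 2.36 ± 0.51, with 394 and 659.5 in ovary and 117 and 82.8 in fat body. The rarest form, aae-miR-999_R+2, was at 13.8 and 24.9 in ovary and at 1 read in each fat body library.

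The miRNAs miR-12, miR-283 and miR-304 come from neighbouring hairpins in Drosophila. They were put together as a group after their values were seen. Of their 9 kept sequences 6 were called higher in ovary and none lower, beside 17.3% of all kept sequences called higher, with a median log2 change of 1.77 (2.28 on the totals scale). TMM scaling called 4 of the 9. The signal of bdo-miR-12_R+1 was 11984 and 16551 in ovary and 4169 and 5759.7 in fat body. That of bdo-miR-283 was 1904 and 2964 against 629 and 768, and that of bdo-miR-304_R-1 was 17521 and 16024 against 7349 and 5878. Each of the 3 had both ovary libraries above both of fat body, with log2 changes of 1.52 ± 0.27, 1.77 ± 0.36 and 1.35 ± 0.26. The rarer arms went the same way, bdo-mir-304-p3 by 2.27 ± 0.55 and bdo-mir-12-p3 by 1.85 ± 0.74, both called. The other rare arm, bdo-mir-283-p3, was at 18.4 and 50.9 in ovary and at 12.3 in both fat body libraries and was not called.

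For miR-375, 3 of 3 kept sequences were called higher in ovary, beside 17.3% of all kept sequences. Its abundant arm bdo-miR-375_R-1 had a signal of 1984 and 1605 in ovary and 509.6 and 589 in fat body, a log2 change of 1.70 ± 0.38. A longer form of that arm, dme-miR-375-3p_R+1, was at 39.1 and 44.1 in ovary and at 15.35 and 3.07 in fat body. The opposite arm bdo-mir-375-p5 was at 27.6 and 32.8 in ovary and at 0 and 6.13 in fat body, and was not called without fat body replicate 1. Smaller differences were found for some of the most abundant sequences. A miR-31 sequence, listed both as dme-miR-31b-5p_R+1_1ss15AC and as dme-miR-31a-5p, was at 29574 and 22235 in ovary and 15524 and 13126 in fat body, a log2 change of 0.85 ± 0.23. That of bdo-miR-316 was 3593 and 4726 against 1274 and 1346, a log2 change of 1.65 ± 0.33. For both, the lower ovary library exceeded the higher fat body library. The Hox miRNA bdo-miR-iab-4, which in Drosophila represses Ultrabithorax, was at 552 and 389 in ovary and at 261 and 150.2 in fat body, a log2 change of 1.22 ± 0.48 with an adjusted p of 0.038. The sequence aga-miR-957 was at 184.2 and 340.5 in ovary and at 30.7 and 33.7 in fat body, a log2 change of 2.92 ± 0.61.

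**Figure D3:**
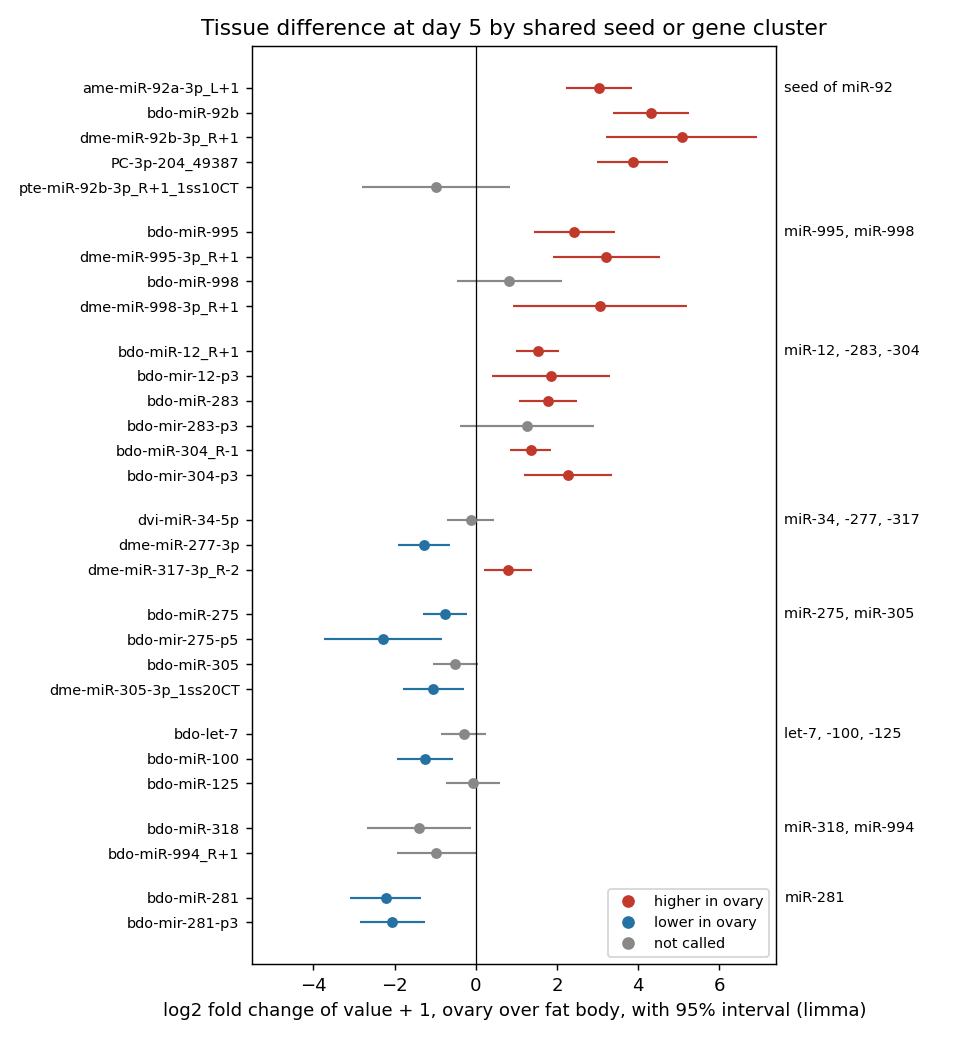
Log2 fold change of value + 1, ovary over fat body, at day 5 (horizontal) for sequences grouped by shared seed or by gene cluster, with points for limma estimates from 2 libraries per tissue and bars for 95% intervals. The seed of miR-92 lies between -0.97 and 5.07 with 4 of 5 called, and the 2 arms of miR-281 lie near -2.

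Other miRNAs known from the ovary were not called higher in ovary than in fat body at day 5. The signal of bdo-miR-318, abundant in ovaries of Drosophila, was 36.8 and 47.5 in ovary and 82.9 and 150.2 in fat body. That of bdo-miR-994_R+1, its neighbour in the Drosophila genome, was 145 and 210.4 in ovary and 224 and 527 in fat body. Both ovary libraries thus lay below both fat body libraries for each, but neither difference was called (-1.39 ± 0.65 and -0.97 ± 0.50). The miR-309 cluster, which in the Drosophila embryo clears maternal messenger RNAs, had 8 kept sequences, of which 0 were called in limma and 0 on the totals or TMM scale, with a median of -0.58 (-0.05 on the totals scale). Among them bdo-miR-6 was at 59.9 and 40.7 in ovary and 67.5 and 130.3 in fat body. The values of bdo-miR-286 were 53.0 and 48.6 in ovary against 39.9 and 42.9 in fat body. The sequence of bdo-miR-184, which in Drosophila is required in several steps of egg formation, was abundant in both tissues, with 28527 and 26984 in ovary and 44019 and 33802 in fat body. Its difference of -0.48 ± 0.22 was not called and turned to 0.08 on the totals scale.

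The fat body was marked by miR-8 (bdo-miR-8_R+1), which in the Drosophila fat body acts on growth through insulin signalling. Its signal was 26565 and 35902 in ovary and 192827 and 222100.0 in fat body. Both fat body libraries lay far above ovary, by a log2 change of -2.74 ± 0.19 (95% interval -3.12 to -2.37), and miR-8 held 32.0% of the fat body signal and 7.09% of that of ovary. The opposite arm of its hairpin, dme-miR-8-5p, was at 1013 and 876 in ovary and at 4039.9 and 5107 in fat body, a log2 change of -2.27 ± 0.33. Thus both arms were called lower in ovary, in all 6 fits. These are bulk tissues, in which fewer cells of a type and less of a miRNA per cell cannot be told apart.

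The largest difference in favour of fat body was that of bdo-miR-958, with 16.1 and 26.0 in ovary and 270.1 and 572 in fat body, a log2 change of -4.20 ± 0.61. The sequence of miR-274 (dme-miR-274-5p_R-1), which glia release in Drosophila, was at 122 and 133.5 in ovary and at 1243 and 1579 in fat body, a log2 change of -3.45 ± 0.45. Each fat body library lay several times above each ovary library for both. The signal of bdo-miR-252 was 403 and 269 in ovary and 1025 and 1145 in fat body, a log2 change of -1.72 ± 0.42. Its longer form dme-miR-252-5p_R+1 differed by -2.06 ± 0.67, a difference not called on the totals scale or in edgeR. The opposite arm bdo-mir-252-p3 was at 0 in both ovary libraries and at 18.4 and 13.8 in fat body, too few reads for a fold. The sequence bdo-miR-263b, a miRNA that in Drosophila protects sensory bristle cells, was at 2.30 and 7.92 in ovary and at 55.3 and 64.4 in fat body, a log2 change of -3.48 ± 0.87. The sequence bdo-miR-981 was at 73.7 and 37.3 in ovary and at 233 and 208 in fat body. This is a log2 change of -2.05 ± 0.59 that was not called in edgeR. The short sequence named bmo-miR-2779_L-2 was at 82.9 and 40.7 against 338 and 135, a log2 change of -1.86 ± 0.58 that was not called on the totals scale and became -1.20 without fat body replicate 1.

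Among the markers of other cell types, sequences of the gut and muscle miRNAs were called lower in ovary. The gut miRNA is miR-281, known from the midgut of mosquitoes. All 3 of its kept sequences were called lower in ovary, beside 12.8% of all kept sequences. The totals scale called 2 of them and TMM called 2, and edgeR did not call bdo-mir-281-p3 (adjusted p = 0.0709). The signal of bdo-miR-281 was 159 and 225 in ovary and 691 and 1134 in fat body, and that of its opposite arm bdo-mir-281-p3 was 200.3 and 510.2 against 1240.2 and 1429. Both arms were higher in each fat body library, with log2 changes of -2.22 ± 0.45 and -2.05 ± 0.41. The summed signal of all miR-281 sequences, kept or not, was 361 and 748 in ovary and 1998 and 2609 in fat body. The muscle miRNA bdo-miR-1 was at 19901 and 19197 in ovary and at 36961 and 35205 in fat body, a log2 change of -0.88 ± 0.22. Of its 4 kept forms 2 were called lower in ovary, beside 12.8% of all kept sequences, and 0 were called on the totals scale. The second muscle miRNA, miR-133, was at 2.30 or less in every library. The nerve miRNAs miR-124, miR-137 and miR-1000 summed to 373 and 271 in ovary and to 780 and 506 in fat body, and none was called. The part of gut, muscle or nerve in the differences between ovary and fat body was not tested.

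The labels were checked against markers chosen with earlier results of these data known. Of 8 kept sequences of miR-989, miR-318, miR-994 and miR-92, 4 were called higher in ovary and none lower, beside 17.3% and 12.8% of all kept sequences. The exceptions were the forms of miR-318 and miR-994 and the fifth form of miR-92. All 6 kept sequences of miR-8, miR-274 and miR-252 were called lower in ovary, beside 12.8% of all kept sequences. The summed ovary markers were 24795 and 31841 in ovary and 1561 and 1529 in fat body. The summed fat body markers were 28135 and 37211 in ovary and 199267 and 230129 in fat body. The ovary sum was mostly miR-989 and the fat body sum mostly miR-8. Since the markers were chosen with results known, the counts of calls and the sums describe the libraries and test nothing.

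The list of fat body and metabolism miRNAs had 13 kept sequences, of which 7 were called lower in ovary and none higher, beside 12.8% of all kept sequences called lower, with a median of -1.10. On the totals scale 2 were called, both arms of miR-8, and the median was -0.55. The most abundant member was bdo-miR-276a, known in Drosophila from olfactory memory, with 111999 and 95126 in ovary and 191221 and 165739 in fat body. Its log2 change was -0.79 ± 0.17 and was not called on the totals scale, since it held 23.5% of the ovary signal and 27.6% of that of fat body. The sequence dme-miR-277-3p, a regulator of the breakdown of branched-chain amino acids in Drosophila, was at 1416 and 1718 in ovary and at 3149.7 and 4555 in fat body, a log2 change of -1.28 ± 0.33. The sequence dme-miR-278-3p, which in Drosophila acts on energy balance and insulin response, was at 2723 and 1398 in ovary and at 5053 and 3250.1 in fat body, a log2 change of -1.05 ± 0.32 that was -0.57 without ovary replicate 2. The fat body libraries of both lay above the ovary libraries. For bdo-miR-14, whose loss raises fat stores in Drosophila, the values of 8471 and 6819 in ovary and 9517 and 12137 in fat body were not called different, and the difference of -0.50 ± 0.26 turned to 0.06 on the totals scale.

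The miRNAs miR-34, miR-277 and miR-317 are made from 1 cluster in Drosophila, known from ageing studies, but did not differ alike between the tissues. While miR-277 was lower in ovary, miR-317 (dme-miR-317-3p_R-2_2ss21CT22AC) was called higher, with 5341 and 5654 in ovary and 2883 and 3506 in fat body, a log2 change of 0.79 ± 0.30. The values of dvi-miR-34-5p overlapped, at 4747 and 3866 in ovary and 4464 and 4852 in fat body. Its difference of -0.12 ± 0.29 was not called and turned to 0.44 on the totals scale.

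The list of miR-275 and miR-305 had 7 kept sequences, of which 4 were called lower in ovary, beside 12.8% of all kept sequences, with a median of -0.76 (-0.20 and 0 called on the totals scale, 1 called with TMM). In the mosquito Aedes aegypti miR-275 is needed for blood digestion and egg development. The signal of bdo-miR-275 was 4648 and 5185 in ovary and 7665 and 9027 in fat body, a log2 change of -0.76 ± 0.28. The opposite arm bdo-mir-275-p5 differed by -2.28 ± 0.74, with 23.0 and 11.3 in ovary and 79.8 and 85.8 in fat body. The miRNAs let-7, miR-100 and miR-125 time the larval to adult transition in Drosophila. Of their 11 kept sequences none was called higher in ovary and 1 lower, beside 17.3% and 12.8% of all kept sequences. This was bdo-miR-100, with 967 and 1106 in ovary and 2744 and 2217 in fat body, a log2 change of -1.25 ± 0.35. On the totals scale 0 of the 11 were called, and the list's median of -0.44 became 0.12.

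Members of the miR-2 family repress genes of programmed cell death in Drosophila. Of the family's 18 kept sequences 1 was called higher in ovary and 1 lower, beside 17.3% and 12.8% of all kept sequences. The median was 0.53. The totals scale called 7 higher and none lower, and TMM 3 higher and none lower. The abundant bdo-miR-11 was at 14464 and 15085 in ovary and at 12685 and 13331 in fat body, a difference of 0.18 ± 0.25 that was not called, but was 0.74 and called on the totals scale. The seed of this family (ATCACAG) is also that of miR-5 and miR-6 and was carried by 15 kept sequences, with log2 changes from -2.37 to 1.07 and 1 call, that of bdo-mir-308-p3. None of the 15 was called higher in ovary, beside 17.3% of all kept sequences. The miR-9 family had 9 kept sequences and 0 calls in limma on the deposited or TMM scale (1 higher on the totals scale), with a median of -0.03 (0.52 on the totals scale).

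Among the 54 predicted candidates 10 were called higher in ovary and 2 lower, beside 17.3% and 12.8% of all kept sequences, the share higher being near that of all, with a median of 0.14 (0.64 on the totals scale). All predicted candidates of the series, kept or not, held between 0.600% and 2.07% of the signal of a day 5 library. The most abundant of the called was PC-3p-204_49387, described above. The candidate PC-3p-37142_314 was at 179.6 and 37.3 in ovary and at 3.07 and 10.7 in fat body, a log2 change of 3.59 ± 0.82. Without fat body replicate 1 it was 2.83 and not called, and without either ovary library it lay between 2.47 and 4.71. The candidates PC-3p-113416_72 and PC-5p-45903_240 were at 0 in both fat body libraries and at 13.6 to 31.7 in ovary, so their fold is not given. The call of PC-5p-22811_571 was the only 1 with overlapping tissues, at 159 and 15.8 in ovary and 43.0 and 0 in fat body, and its log2 change of 2.97 was 0.24 without fat body replicate 2.

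Features outside the choice of sequences were shared as follows. For 39 miRNA numbers the kept sequences formed a pair of sets without a shared run of bases, taken as both arms. For 30 of these numbers the main sequences of both arms differed in 1 direction. Hairpins were not identified, and a number such as miR-2b can stand for more than 1. For 7 numbers both arms were called, and all 7 agreed in direction. Across these pairs the log2 changes of the arms had a Spearman's rho of 0.769 and a Pearson's r of 0.728, given as a description since arms share a transcript and a library. Rarer sequences were set against the main sequence of the same miRNA number with which they share a run of bases. Of 44 such pairs 41 had the same sign, with a median absolute difference of 0.44 log2 units. Not all are forms of 1 arm: bdo-mir-2b-1-p5 and bdo-mir-2b-2-p5 are paired. So are bdo-miR-92b and pte-miR-92b-3p_R+1_1ss10CT, which has the bases of miR-92a but for the last, with the largest difference (-5.29). The median length was 22 bases in each class of call. A T (U in the RNA) as first base was found in 64.1% of sequences higher in ovary, 51.7% of those lower and 54.4% of those not called.

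Whether the tissue difference of day 5 differed from that of day 1 was tested in limma on the 12 libraries of days 1, 5 and 13, with 6 residual and 4.80 prior degrees of freedom. Day 9 was left out, since libraries there were known from earlier results to go against their labels. Only 3 of 226 sequences were called (1.33%), all with a lower ovary to fat body difference at day 5, and 28 had an unadjusted p under 0.05. The first was miR-317, with 5097 and 4351 in ovary at day 1 and 678 and 883 in fat body, so its difference of 2.60 at day 1 was 0.79 at day 5, a change of -1.81 ± 0.28. The second was dvi-miR-34-5p, with 3525 and 2661 in ovary at day 1 and 794 and 1121 in fat body, a change of -1.82 ± 0.34. For both, the fat body level at day 5 was several times that of day 1, while the ovary levels of the days lay closer together. The third was api-miR-87a, with 72.6 and 139.8 in ovary and 4.45 and 11.5 in fat body at day 1. At day 5 its order was the opposite, with 6.91 and 0 in ovary and 82.9 and 12.3 in fat body, a change of -7.19 ± 1.46 that rests on few reads. The 3 calls rest on single libraries: there were 0 without ovary day 1 replicate 1, without fat body day 1 replicate 1 or without ovary day 5 replicate 2, and 1 without fat body day 5 replicate 1.

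Of the 68 sequences called at day 5, 35 were called in the same direction at day 1 in the 12-library fit, where day 1 had 51 calls. Of the seed group of miR-92, bdo-miR-92b was high in ovary at both days, with 1414 and 1269 against 39.6 and 56.7 in fat body at day 1. For miR-989 the ovary values at day 1 were 1466 and 1145 against 98.4 and 323 in fat body, a difference of 2.85, and the change to 5.10 at day 5 was not called (2.25 ± 0.93, adjusted p = 0.342). For bdo-miR-958 the tissues overlapped at day 1, with 328 and 241 in ovary and 280.5 and 406 in fat body, and the change of -3.93 ± 1.66 was not called either.

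Against day 13 the tissue difference was called different for 67 sequences. For 29 of them (12.8%) the ovary to fat body difference was higher at day 5, and for 38 (16.8%) it was lower. This contrast and that with day 1 share the libraries of day 5. The largest lower values were those of the miR-309 cluster, miR-318 and miR-994. The signal of bdo-miR-318 was 33506 and 42138 in ovary at day 13 and 24.8 and 273 in fat body, and the change in tissue difference was -10.20 ± 1.19 (adjusted p = 0.000103). That of bdo-miR-994_R+1 was 68481 and 101141 in ovary at day 13 and 91.9 and 749 in fat body, a change of -9.27 ± 1.13. That of bdo-miR-6 was 36372 and 58585 against 44.8 and 344, a change of -9.43 ± 1.11. In ovary all 3 stood at 210.4 or less in each library of days 1 and 5, and the fat body library labelled day 13 replicate 2 held more of each than replicate 1. The changes of bdo-miR-5b and bdo-mir-5a-p3, which stood at few reads at day 5, were -10.53 ± 1.497 and -9.95 ± 1.39. The difference of miR-989 was also smaller at day 5, by -2.84 ± 0.93 (adjusted p = 0.0406), with 57486 and 82625 in ovary at day 13 and 131 and 598 in fat body.

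**Figure D4:**
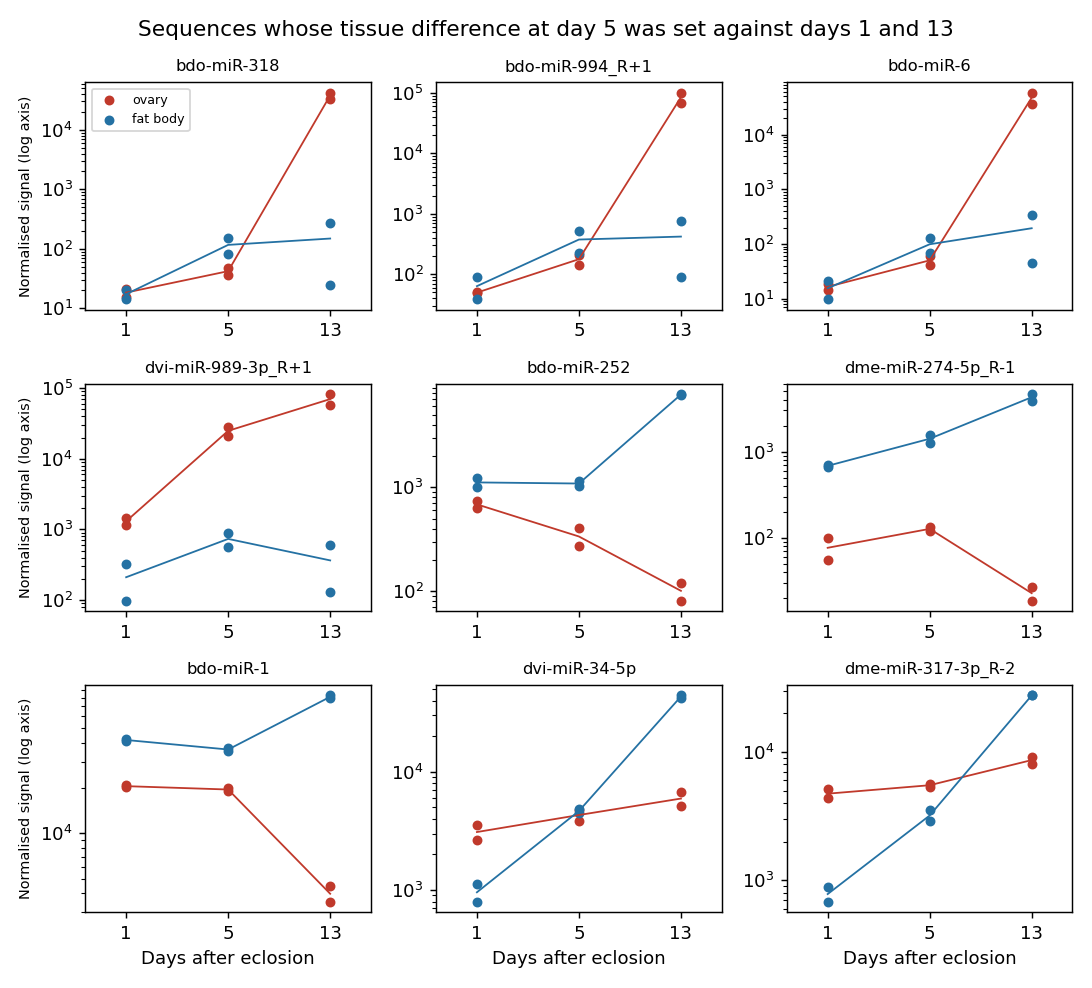
Signal in the ovary and fat body libraries of days 1, 5 and 13 (log axes), each point 1 library and each line the mean of 2 libraries. In ovary miR-318, miR-994 and miR-6 are at 210.4 or less at days 1 and 5 and at 33506 or more at day 13, while miR-989 is at 21167 and 28623 by day 5.

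Apart from the predicted candidates given below, the largest higher values at day 5 belonged to sequences whose fat body excess was greater at day 13. The signal of bdo-miR-252 was 120.5 and 81.4 in ovary and 7682 and 7871 in fat body at day 13, so that its difference of -1.72 at day 5 was -6.28 at day 13, a change of 4.57 ± 0.41. The longer form dme-miR-252-5p_R+1 changed by 4.22 ± 0.74. That of miR-274 was 18.9 and 27.1 in ovary and 3889 and 4649 in fat body at day 13, a change of 4.04 ± 0.49. In these, ovary was lower and fat body higher at day 13 than at day 5. Likewise the muscle miRNA bdo-miR-1 was at 3496 and 4427 in ovary and 79036 and 82675 in fat body at day 13, a change of 3.48 ± 0.21. Its ovary level at day 5 was thus several times that of day 13, and the part of muscle in the ovary values was not tested. The candidates PC-3p-36663_319 and PC-3p-37142_314 had changes of 6.27 ± 1.88 and 5.995 ± 1.36, higher in ovary at day 5 and in fat body at day 13. The difference of miR-8 was -2.74 at both days, and its change of -0.01 ± 0.32 was not called. Of the 68 sequences called at day 5, 42 were called in the same direction at day 13 and 4 in the other, where day 13 had 126 calls.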

How the data were processed

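The results use the 4 small RNA libraries of day 5, with the 8 of days 1 and 13 for the tests across days. Per the labels' protocols, Trizol RNA went into TruSeq small RNA libraries, and the ACGT101-miR program of LC Sciences removed adapter dimers, junk, low complexity reads, rRNA, tRNA, snRNA, snoRNA and repeats. Neither the aligner nor the genome build nor the scaling method is given in the sources used here. The authors deposited 1 table of normalised signal per sequence, marked norm per the file headers, which can carry any bias of that scaling. In the day 5 libraries low values rose in even steps, and dividing by the step gave recovered reads, whole to within 0.1 for 93.7% to 96.8% of low values. Intervals for counting error are not given, since reads are not independent molecules. The 41 repeated entries held values identical to their partner and were summed.

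Values were taken as log2(value + 1), with the pseudocount of 1, and fitted in limma (version 3.58.1, R 4.3.3) with an intensity trend and without its robust setting, with no covariates. Benjamini-Hochberg adjustment ran over all 226 sequences with a threshold of 0.05. Log2 changes are of value + 1, which understates the change of low sequences. edgeR 4.0.16 (quasi-likelihood) and DESeq2 1.42.0 ran on recovered reads as alternatives, beside other pseudocounts, filters, scales, a replicate block and leaving out each library. The named sequences were the 10 with the largest change each way among those without overlap and with a higher mean of at least 100, the 10 most abundant per tissue, up to 5 per direction of each test across days, and members of lists. Others (miR-998, the rarer forms of miR-999, miR-375, miR-316, miR-iab-4, miR-263b, bdo-mir-252-p3, miR-283 and the rarer arms of the cluster of miR-12) were named after their values were seen. The members, lists and markers were chosen with earlier results of these data known. In simulated data with 226 sequences, the day 5 test recovered 40.3% of 2-fold, 76.5% of 4-fold and 93.2% of 8-fold changes, with 3.08% of calls false. The simulated spread depended on the level of a sequence alone, as limma's infinite prior assumes. These shares therefore do not measure the share of false calls in the real data.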

Additional observations from a re-analysis of the deposited data

Results flagged for a closer look

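In limma on 12 libraries the tissue difference at day 5 was called different for 3 sequences against day 1 and 67 against day 13. Values are log2 of ovary over fat body at day 5 minus that at the other day. Listed here are 13 of the called, the largest with at least 1 group mean of at least 100, up to 5 per direction. Against day 1 these were api-miR-87a (-7.19), dvi-miR-34-5p (-1.82) and dme-miR-317-3p_R-2_2ss21CT22AC (-1.81). Their adjusted p-values were 0.0366, 0.0248 and 0.0121, and over the alternatives tried they reached 0.217, 0.972 and 0.289.

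Against day 13 the values were 6.27 for PC-3p-36663_319, 5.995 for PC-3p-37142_314, 4.57 for bdo-miR-252, 4.22 for dme-miR-252-5p_R+1 and 4.04 for dme-miR-274-5p_R-1. Lower at day 5 were bdo-miR-5b (-10.53), bdo-miR-318 (-10.20), bdo-mir-5a-p3 (-9.95), bdo-miR-6 (-9.43) and bdo-miR-994_R+1 (-9.27). Over the alternatives tried, the highest adjusted p was 0.0187 for each of the last 5. It was 0.104 for PC-3p-36663_319, 0.0364 for PC-3p-37142_314, 0.0316 for bdo-miR-252, 0.0801 for dme-miR-252-5p_R+1 and 0.0864 for dme-miR-274-5p_R-1. Groups of 2 libraries are too small for a check of single outlying libraries.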

How the results depend on the processing

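The 68 calls at day 5 became 38 with no filter on low values (572 sequences tested), 42 with a filter of 100 (98 tested), 33 without the intensity trend, 14 in a fit on all 16 libraries and 42 with edgeR. Leaving out 1 library gave between 0 and 48, and the cause of these moves was not tested beyond the number of sequences and libraries. Against day 1 the 3 calls became 7 with no filter, 7 with library totals (3 higher and 4 lower), 5 without the trend, 0 with all 16 libraries and between 0 and 3 without 1 library. Against day 13 the 67 became 114 with no filter, 41 with the filter of 100, 22 with all 16 libraries and between 49 and 74 without 1 library. Library totals split those calls into 35 higher and 30 lower and the filter of 100 into 25 and 16, against 29 and 38. Differences that were not called changed sign with library totals: bdo-miR-125 (0.48), dvi-miR-34-5p (0.44), bdo-let-7 (0.26), bdo-miR-4_R-2 (0.0819), bdo-miR-184 (0.0812), bdo-miR-14 (0.0568) and bdo-miR-305 (0.0521). So did bdo-miR-125 with TMM (0.13), edgeR (0.13) and DESeq2 (0.0191), and dvi-miR-34-5p with TMM (0.0848) and edgeR (0.089); leaving out 1 library moved the latter between -0.27 and 0.0285. The replicate numbers were checked as a pairing: the replicate differences of ovary and fat body correlated at 0.416, but with 2 pairs and no label of pairing they were not treated as pairs. The replicate block gave 69 calls at day 5, 61 of them among the 68, 2 against day 1 and 74 against day 13. With it bdo-miR-184 and bdo-miR-305 were called and PC-3p-37142_314 was not. With 1 read worth 1.13 to 3.07 in signal, values under about 10 rest on few reads.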
